A study of Mus musculus with 6 samples.

Results

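The study labels the olfactory bulb cluster n02-PGC-1 as periglomerular cells, the interneurons around the glomeruli where olfactory sensory axons end. The place of its cells in the bulb was not measured here. The cluster carries the calretinin gene Calb2. Its members were the cells that the study's annotation of neurons assigns to n02-PGC-1. There were 1037 of them among 21746 neurons of 18 types, in a table of 52549 barcodes of which 51426 carried a cluster. Single cells were profiled in 6 droplet libraries, 2 for each of 3 groups, from wild-type C57BL/6NJ mice aged 14 weeks. The control group was labelled as without manipulation, and the naris-occluded group had odor input to 1 side blocked for 6 weeks. The olfactory-trained group learned odor discrimination for the same time. The study's methods describe its mice as deprived of water and rewarded with it. Training and water deprivation therefore cannot be told apart. Each library was a pool of 3 mice, replicate 1 from males and replicate 2 from females, so sex and replicate number cannot be told apart. The study's text names naive mice as a group and also the unblocked side of occluded mice as a control, and which of them gave the control libraries was not settled here beyond the labels. Every value in this report is from counts of unique molecular identifiers (UMIs), each of which stands for 1 captured transcript molecule.

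Periglomerular cells release GABA, and many also dopamine, onto the sensory terminals and principal cell dendrites within a glomerulus. They fall into classes that carry calretinin, tyrosine hydroxylase or calbindin, and new ones are added to the bulb throughout adult life. Calretinin is a cytosolic calcium buffer. Nppa encodes atrial natriuretic peptide, a hormone of the heart whose receptor makes cGMP, and Apold1 encodes a protein first described as an early response gene of endothelial cells.

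The control libraries of replicates 1 and 2 held 256 and 181 n02 cells, those with occlusion 163 and 136, and those with training 175 and 126. Summed over its n02 cells, a library held between 225718 and 490811 UMIs, and the median cell held 1559 to 1961.5 UMIs and 962 to 1188 genes. Mitochondrial genes gave a median of 6.78% to 8.08% of a cell's UMIs. The naris-occluded library of replicate 2 was the shallowest by total and by median. The study groups 12 of the 18 types as adult-born lineages, and no cell was dated by its birth in these libraries. According to the paper, n05-PGC-2 and n12-GC-6 among them form earlier in life and are little replaced in adults. Of the cells in these 12 types, n02 made up 7.99% (95% exact binomial interval 7.08 to 8.99) and 8.12% (7.02 to 9.34) in the controls. With occlusion the shares were 6.98% (5.98 to 8.09) and 4.65% (3.91 to 5.47). With training they were 5.25% (4.51 to 6.06) and 5.54% (4.64 to 6.56). Intervals cover counting error only, and these shares were not compared between groups because genes that define the cluster differed between them. In a clustering of all bulb cells, 1026 of the 1037 lay in a cluster that also held 1888 cells of n03-GC-1, the other calretinin-rich type. The n02 cells were 42.7% and 48.0% of the cells of both types in the controls, 31.0% and 18.8% with occlusion, and 38.0% and 47.5% with training. Only 1 of 1036 different n02 barcodes occurred in more than 1 library. In the trained libraries the cell names of 301 n02 cells began with the other library's number, and the annotation's library column was used: Xist lay at 0 CPM in the 3 male pools and at 2144 to 2379 CPM in the 3 female pools.

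To describe what these cells express, UMIs were summed over the cells of each type in each library and scaled to a total of 1000000 (counts per this total, CPM), and levels are given as the mean ± SD over 6 libraries. Since the types were made by clustering the same values, the differences between types are a description and were not tested. Calb2 stood at 6489 ± 677 CPM in n02. It was higher, at 13129 ± 2397 CPM, in n03-GC-1, which exceeded n02 in 6 of 6 libraries, and n11-GC-5 came next with 1137 ± 274 CPM. Calb2 therefore marked n02 together with n03 and not n02 alone. Nppa reached 902 ± 261 CPM in n02, 223 ± 85.2 in n03 and 143 ± 43.6 in the Th-rich n05-PGC-2, in the same order in 6 of 6 libraries. Apold1 reached 614 ± 195 CPM in n02 and 267 ± 73.3 in n03, and no other neuronal type had a mean above 17.9 CPM. From n16-M/TC-2 down to n12-GC-6, neighbors in the order of Apold1 levels differed by less than their SD, and n18-EPL-IN was at 0 in all 6 libraries. Nppa and Apold1 thus followed the label, with n03 as the next type down, while Calb2 was highest in n03.

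**Figure D1:**
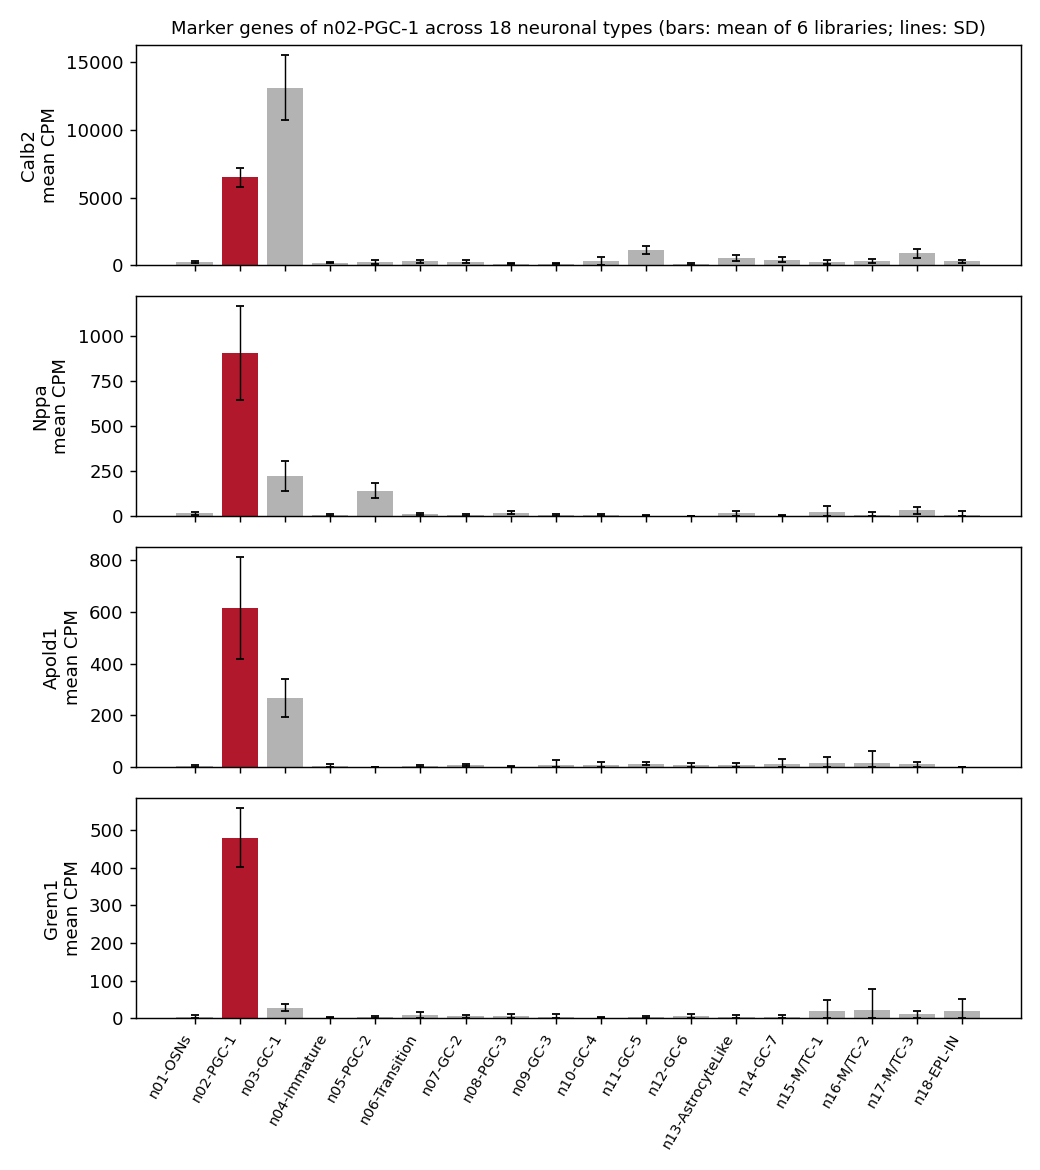
Mean CPM (vertical axes, linear from 0) of Calb2, Nppa, Apold1 and Grem1 in the 18 neuronal types, with bars for the mean and lines for the SD of 6 libraries and n02-PGC-1 in red. Calb2 is highest in n03-GC-1 (13129) and n02 is next (6489), whereas Nppa, Apold1 and Grem1 are highest in n02, at 902, 614 and 480 CPM.

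The gene that set n02 apart most was Grem1, a secreted antagonist of bone morphogenetic proteins (BMPs). It stood at 485 and 534 CPM in the controls, 416 and 359 with occlusion, and 541 and 546 with training. The highest other type, n03, had a mean of 28.8 CPM, so n02 was 16.7-fold higher. Of 3356 genes with at least 50 CPM in n02, the cluster ranked highest of the 18 types for 331, and Grem1 led the 20 with the largest ratios to the next type. Of the receptors among them, Oprk1, the kappa opioid receptor, had 71.9 ± 14.02 CPM and was 4.22-fold above n03. Grm2, a metabotropic glutamate receptor that lowers release, had 122 ± 18.8 CPM (2.41-fold above n07-GC-2). Adora2a, a receptor for adenosine, had 68.5 ± 22.3 CPM (2.39-fold above n03), and the orphan receptor Gpr22 had 249 ± 31.0 (2.13-fold). Kctd8, an auxiliary subunit of GABA-B receptors, had 67.7 ± 23.0 CPM and was 3.32-fold above n05. Secreted or peptide products besides Grem1 and Nppa were Enho, the precursor of adropin, with 390 ± 43.2 CPM (2.48-fold above n03), and Tac2, the precursor of neurokinin B, with 264 ± 123 CPM (2.17-fold above n09-GC-3). Nrsn1, a membrane protein of neuronal vesicles, stood at 4011 ± 844 CPM, 2.15-fold above n05. The remaining members were Pde2a, Apold1, Gm11549, the calcium-binding Necab1, the corepressor Tle2, the G protein regulator Rgs7, the glutamate transporter Slc1a3, the transcription factors Insm1 and Etv5, and the muscle-type glycogen phosphorylase Pygm. In 12 of the 20, including Grem1, Nppa and Apold1, the next type was n03.

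Genes that make and package GABA stood at a modest level in n02. Gad1 and Gad2, which make GABA, stood at 631 ± 81.6 and 163 ± 35.8 CPM, both at rank 11 of 18. The vesicular GABA transporter Slc32a1 stood at 254 ± 18.7 (rank 9). With each cell thinned to 500 UMIs, Gad1 was in 26.1% of n02 cells and 15.4% of n01-OSNs. In n13-AstrocyteLike, a type the study calls ambiguous, it was in 28.8%. The shares for Gad2 were 6.65%, 2.58% and 5.80% in the same order. Th, the first enzyme of dopamine synthesis, was at 11.1 ± 7.78 CPM against 1277 in n05-PGC-2. Calb1, the calbindin gene, was at 2.75 ± 3.70 CPM against 809 in n08-PGC-3. The defining genes of the other periglomerular classes were thus near 0 in n02. Among receptors for modulators, Htr1f, a serotonin receptor, was highest in n02 at 412 ± 31.8 CPM, whereas of the other 20 receptors for serotonin, acetylcholine and noradrenaline found in the table none passed the count filter. The plasma membrane calcium pump Atp2b1 ranked highest in n02 with 2220 ± 149 CPM, and so did Mgll, which breaks down the endocannabinoid 2-AG, with 275 ± 34.6. Its receptor gene Cnr1 was second only to n18-EPL-IN, at 167 ± 38.7 CPM. Pcp4, a calmodulin regulator of granule cells, was lowest in n02 of all 18 types, at 377 ± 109 CPM.

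The natriuretic peptide was present largely without its receptors. Npr1, the receptor for atrial natriuretic peptide, stood at 1.19 ± 1.87 CPM, Npr2 at 8.34 ± 4.89 and Npr3 at 0.340 ± 0.832. The levels of Npr1 were higher in the mitral and tufted types n17-M/TC-3, at 181 CPM, and n15-M/TC-1, at 138. By contrast, 2 phosphodiesterases that act on cGMP, Pde2a (192 ± 21.2 CPM) and Pde5a (143 ± 29.8), were highest in n02, and the subunits of the nitric oxide sensitive cyclase, Gucy1a3 and Gucy1b3, stood at 124 ± 15.9 and 172 ± 18.4. Of transcription factors that specify bulb interneurons, Sp8 was highest in n02 at 829 ± 80.4 CPM, and Zic1 (649 ± 69.6), Dlx1 (454 ± 69.0) and Etv1 (448 ± 45.7) ranked second. Over the 3356 genes, log2 mean levels of n02 correlated with those of n03 at r = 0.960 and with n05, the next in order, at 0.830. The periglomerular type n08-PGC-3 was at 0.766. Above it stood n10-GC-4 (0.816), n13-AstrocyteLike (0.806), n01-OSNs (0.784) and n11-GC-5 (0.774), so the order did not follow the class of the types. These correlations are across genes of the same libraries and carry no test.

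Markers of other cell types were measured in n02 too. Astrocyte markers, which include Slc1a3 of the genes above, summed to 2542 to 3141 CPM, oligodendrocyte markers to 742 to 1472 and olfactory ensheathing cell markers to 702 to 1152. Summed over 9 mitral and tufted markers, n02 held 36.5 to 83.5 CPM, and none of the 9 passed the filter. Red blood cell genes summed to 179 and 92.3 CPM in the controls, 252 and 155 with occlusion, and 58.8 and 76.4 with training. Endothelial and mural genes summed to 179 to 268 CPM in 5 libraries and to 465 in the naris-occluded library of replicate 2. Olfactory sensory neuron genes summed to 1434 and 987 CPM in the controls, 742 and 740 with occlusion, and 1223 and 603 with training. These sums hold S100a5, which alone gave 766 and 498, 231 and 155, and 532 and 256 CPM of them, and the defining gene Omp stood at 18.8 ± 8.61 CPM.

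The first comparison between groups asked which genes changed in n02 when odor input was blocked. Counts of n02 summed per library were compared with edgeR's quasi-likelihood test over 5829 genes, and a gene was called at a Benjamini-Hochberg adjusted p under 0.05. Only 5 genes passed, or 0.0858% of those tested, with 1 higher (0.0172%) and 4 lower (0.0686%) (306 genes had an unadjusted p under 0.05). Among those that fell were both marker genes other than Calb2. Nppa had 1094 and 1118 CPM in the controls and 672 and 523 with occlusion, and the trained libraries had 864 and 1142. Both occluded libraries lay below the other 4 (log2 fold change −0.90, SE 0.15, adjusted p = 0.0030). Apold1 had 754 and 671 CPM in the controls, 404 and 332 with occlusion, and 764 and 760 with training (log2 fold change of occlusion −0.96, SE 0.16, adjusted p = 0.0023). Here too the occluded pair was separate from all other libraries. Without the naris-occluded library of replicate 2, the adjusted p was 0.140 for Nppa and 0.0783 for Apold1, with log2 fold changes of −0.75 and −0.85. With each gene counted at most once per cell neither passed (−0.36 and −0.50), while DESeq2 called these 2 genes only, with an adjusted p of 0.233 for Nrsn1 and 1.00 for S100a5 and Vip. Calb2 did not pass, with 6421 CPM as the control mean and 7129 as the occluded mean (log2 fold change 0.13). Groups that did not overlap were common: occluded and control libraries were apart in 35.9% of the tested genes. The share of genes with the occluded pair apart from all other libraries was not counted.

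Nrsn1 stood at 4256 and 4113 CPM in the controls, 2975 and 3021 with occlusion, and 4726 and 4976 with training. The occluded libraries were again the lowest pair (log2 fold change −0.50, SE 0.10, adjusted p = 0.021). This call rested on every control and occluded library: the adjusted p was 0.460 without control replicate 1, 0.102 without control replicate 2, 0.236 without naris-occluded replicate 1 and 0.0902 without naris-occluded replicate 2. The largest of the 4 decreases was that of S100a5, a calcium-binding protein of olfactory sensory neurons, at 766 and 498 CPM in the controls, 231 and 155 with occlusion, and 532 and 256 with training (log2 fold change −1.71, SE 0.24, adjusted p = 0.00026). In the sensory neuron type n01-OSNs, S100a5 stood at 28031 and 25567 CPM in the controls and 15027 and 10026 with occlusion. In nonneuronal cells it stood at 708 and 674 CPM in the controls and 259 and 137 with occlusion. The nonneuronal difference did not pass (log2 fold change −1.81, adjusted p = 0.68). S100a5 was thus at a like level in n02 and in cells that are not neurons, and lower with occlusion in the libraries of both.

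The gene that rose was Vip, vasoactive intestinal peptide, with 297 and 358 CPM in the controls, 726 and 749 with occlusion, and 511 and 187 with training (log2 fold change 1.16, SE 0.22, adjusted p = 0.016). The occluded pair was above all other libraries, and the trained libraries were far apart. Vip transcripts were held by few cells: 150 of the 1037 cells had any, and in each library the 3 cells with the most UMIs held 43.2% to 67.2% of the gene's total. The 65 cells with at least 3 Vip UMIs held 87.1% of them, and in the remaining cells, where that choice by Vip itself lowers any Vip difference, the log2 fold change was 0.22 (adjusted p = 0.97). In the cells of the leading whole-bulb cluster alone it was 0.59 (adjusted p = 0.68). The 65 cells numbered 9 and 8 in the controls, 15 and 11 with occlusion, and 17 and 5 with training. The 5 genes with the next lowest p did not pass. They were Fxyd1 (log2 fold change 1.46, adjusted p = 0.055), a regulator of the sodium pump of which 29 of 41 UMIs in the occluded library of replicate 1 came from 1 cell, E530001K10Rik (−2.02, 0.26), the transcription factor Etv5 (−1.04, 0.35), Fam84a (−1.42, 0.40) and Tac2 (0.96, 0.40).

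**Figure D2:**
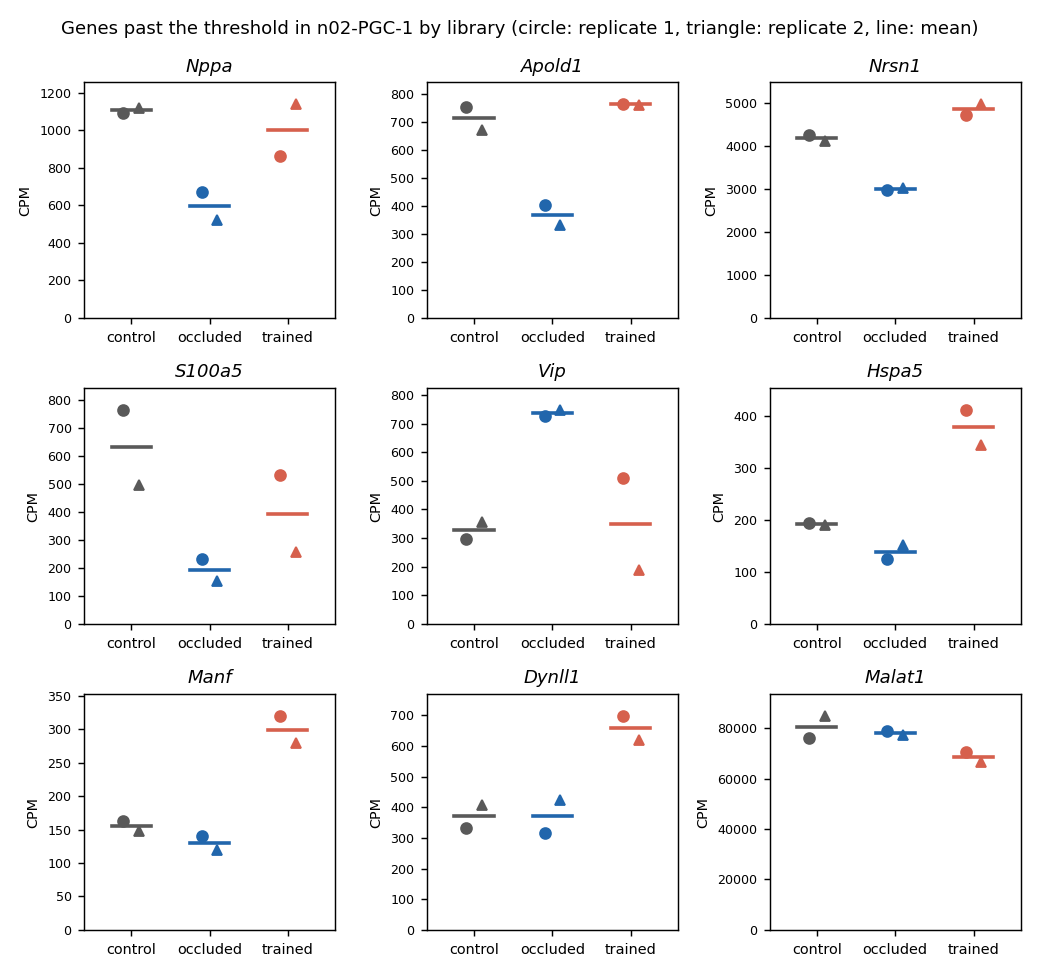
CPM in n02-PGC-1 (vertical axes, linear from 0) of the 9 genes that passed the test for occlusion or training against control, by group, with a circle for replicate 1, a triangle for replicate 2 and a line for the mean. Nppa, Apold1, Nrsn1 and S100a5 are lowest and Vip is highest in the 2 occluded libraries, and Hspa5, Manf and Dynll1 are highest and Malat1 lowest in the 2 trained libraries.

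Because Nppa and Apold1 fell together and Vip rose, their promoters are shown, with that of Hspa5, which rose with training, for contrast. The sequences are RefSeq promoters on GRCm38.p6 from 250 bases before to 50 after the annotated start, written 5′ to 3′ on the strand of the gene. Capitals mark TATAAA, the site TGACG (the left part of the cAMP response element TGACGTCA, or its complement CGTCA), the AP-1 site TGANTCA and the endoplasmic reticulum stress element, which is CCAAT, 9 bases of any kind and CCACG. Nppa lies on chromosome 4 at 148000722 to 148002074 and its promoter window is chr4:148000472-148000771 on the plus strand. Apold1 lies on chromosome 6 at 134982001 to 134986836 with the window chr6:134981751-134982050, plus strand. Vip lies on chromosome 10 at 5639193 to 5647617 with the window chr10:5638968-5639267, plus strand, which was set by a start that lies inside this gene span and not at its first base. Hspa5 lies on chromosome 2 at 34772090 to 34776529 with the window chr2:34771840-34772139, plus strand.
Nppa: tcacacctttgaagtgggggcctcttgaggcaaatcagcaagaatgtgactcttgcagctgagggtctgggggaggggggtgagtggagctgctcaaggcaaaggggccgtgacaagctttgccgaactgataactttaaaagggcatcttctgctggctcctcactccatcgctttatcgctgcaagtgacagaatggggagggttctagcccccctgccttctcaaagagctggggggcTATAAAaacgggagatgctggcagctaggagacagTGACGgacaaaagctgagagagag
Apold1: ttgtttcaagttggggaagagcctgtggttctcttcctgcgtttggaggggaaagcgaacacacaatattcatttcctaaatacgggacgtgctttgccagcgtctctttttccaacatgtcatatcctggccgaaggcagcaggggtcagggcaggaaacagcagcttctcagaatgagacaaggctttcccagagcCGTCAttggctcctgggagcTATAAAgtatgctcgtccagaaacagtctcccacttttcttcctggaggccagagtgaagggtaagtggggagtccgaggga
Vip: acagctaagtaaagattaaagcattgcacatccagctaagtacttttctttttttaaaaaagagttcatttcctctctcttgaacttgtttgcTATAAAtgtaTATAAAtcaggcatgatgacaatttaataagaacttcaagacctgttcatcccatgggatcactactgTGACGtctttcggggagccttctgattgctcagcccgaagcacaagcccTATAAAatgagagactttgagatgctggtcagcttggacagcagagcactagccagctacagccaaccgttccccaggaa
Hspa5: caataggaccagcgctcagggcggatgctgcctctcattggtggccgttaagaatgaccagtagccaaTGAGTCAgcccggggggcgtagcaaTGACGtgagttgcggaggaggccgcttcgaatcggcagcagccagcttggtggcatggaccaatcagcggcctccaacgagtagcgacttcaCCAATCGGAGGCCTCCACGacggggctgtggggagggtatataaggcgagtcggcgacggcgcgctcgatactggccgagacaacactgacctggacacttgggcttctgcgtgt

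With both strands searched, TATAAA was found in the windows of Nppa, Apold1 and Vip, there on the strand of the gene only. It was found in 13.6% of 32851 promoters of this length. TGACG was found in those 3 and in Hspa5, and in 20.8% of all promoters. The whole element TGACGTCA, present in 1.79%, was in none of the 4, and neither was GCGTGGGCG, the site of EGR factors, present in 0.612%. The stress element occurred in 0.119% of all promoters and was found in Hspa5, from 65 to 47 bases before the start, where the AP-1 site (7.81% of promoters) also lay farther upstream. The part of TGACG that matches inside the whole element overlaps with it by construction. The windows of Nrsn1, which also fell with occlusion, and of Dynll1 and Sdf2l1 were searched too. They held no match to any of these sites. The matches are descriptions of letters and say nothing of binding.

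The decrease of Nppa and Apold1 was seen in the share of cells as well as in the number of molecules per cell. In the controls, 72.7% (exact interval 66.8 to 78.0) and 75.7% (68.8 to 81.7) of n02 cells had an Nppa UMI, against 59.5% (51.6 to 67.1) and 50.7% (42.0 to 59.4) with occlusion. The trained libraries had 66.9% (59.4 to 73.8) and 76.2% (67.8 to 83.3). Cells with the transcript held 2.89 and 2.92 UMIs of it on average in the controls, 2.28 and 1.71 with occlusion, and 2.51 and 3.11 with training. After each cell was thinned to 500 UMIs, which removed no cell, the shares were 40.2% and 37.6% in the controls, 24.5% and 24.3% with occlusion, and 35.4% and 38.1% with training. In n03-GC-1 the thinned share was 10.6% and the unthinned one 20.3%, and in n05-PGC-2 they were 4.51% and 18.8%. In the granule type n11-GC-5, whose median depth was 2110 UMIs against 1846 in n02, the thinned share was 0.0599%, and the unthinned one 0.779%. Apold1 UMIs were in 62.9% and 60.2% of control n02 cells, 43.6% and 40.4% of occluded cells, and 65.1% and 63.5% of cells after training. They were in 23.5% of n03 cells and 1.92% of n11 cells.

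**Figure D3:**
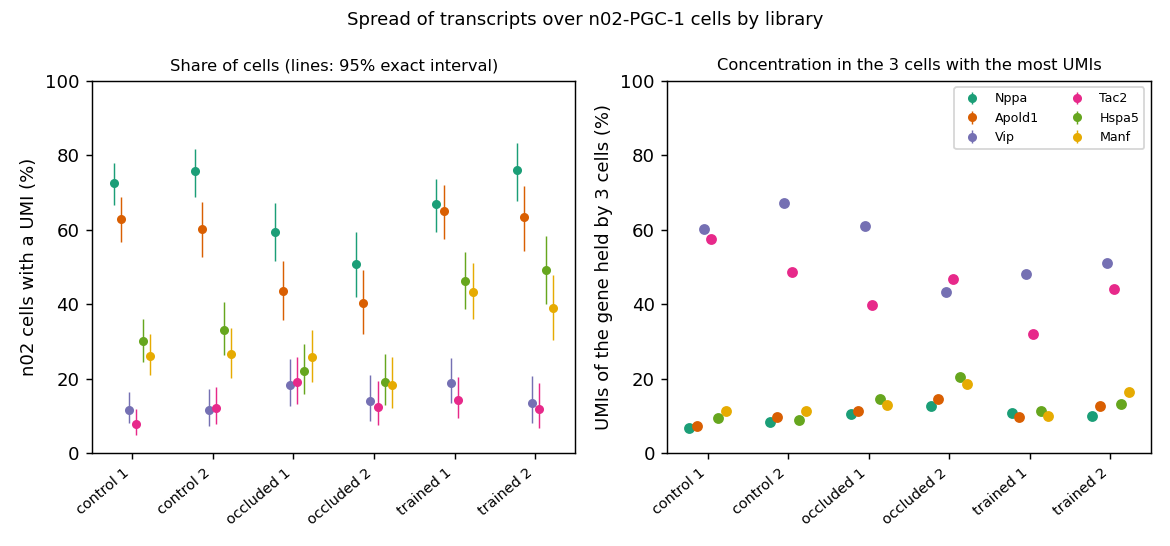
Percent of n02-PGC-1 cells with a UMI of each of 6 genes (left, with 95% exact intervals) and percent of the gene's UMIs held by the 3 cells with the most (right), by library. Nppa and Apold1 are found in fewer cells in the occluded libraries and Hspa5 in more cells in the trained ones, and the 3 leading cells hold 43.2% to 67.2% of Vip UMIs but 6.70% to 12.7% of those of Nppa.

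Whether occlusion acted on n02 in another way than on its neighbors was tested as a difference of the occlusion effects in 1 model over both types, with the library as a term. Against n03-GC-1, 1 of 6527 genes passed (0.0153%, with 310 at an unadjusted p under 0.05), and it was Tac2. In n02, Tac2 had 163 and 235 CPM in the controls and 429 and 332 with occlusion, whereas in n03 it had 72.0 and 50.1 CPM in the controls and 24.2 and 24.2 with occlusion. The difference of log2 fold changes was 2.37 (SE 0.36, adjusted p = 3.07e-07), and without control replicate 1 it was 1.75 (adjusted p = 0.995). As with Vip, Tac2 was concentrated: 3 cells held 32.1% to 57.5% of its UMIs in each library. The decreases of Nppa, Apold1 and Nrsn1 did not pass as differences between n02 and n03 (n02 minus n03 on the log2 scale 0.21 ± 0.19, −0.19 ± 0.19 and 0.12 ± 0.11, each ± SE). In n03 itself, fitted alone, 5 of 6995 genes passed, among them Nppa with 250 and 363 CPM in the controls and 121 and 158 with occlusion (log2 fold change −1.12, adjusted p = 0.0029), and Nrsn1 (−0.62, 0.034). Apold1 in n03 had a log2 fold change of −0.81 (adjusted p = 0.099). With the cells of n02 and n03 summed together, where a shift of cells between the types does not count but their mixture does, the log2 fold changes were −1.38 for Nppa, −1.14 for Apold1 and −0.80 for Nrsn1, each past the threshold. The part that the assignment of cells to n02 or n03 had in these values was not tested.

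Against the other periglomerular types, again 1 gene passed for n05-PGC-2 and none for n08-PGC-3. Mt1, a metallothionein that binds zinc and copper, had means of 704 CPM in control and 918 in occluded n02 cells, but 4057 and 2777 in n05 (difference of log2 fold changes 0.91, SE 0.20, adjusted p = 0.029, 1 of 5053 genes or 0.0198%, with 217 at an unadjusted p under 0.05). The difference did not pass without either control library (adjusted p = 0.498 without replicate 1 and 1.00 without replicate 2) or without either trained library (0.153 and 0.0697). For n08, 0 of 4553 genes passed edgeR's test and 180 had an unadjusted p under 0.05. DESeq2 was not run for these differences.

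**Figure D4:**
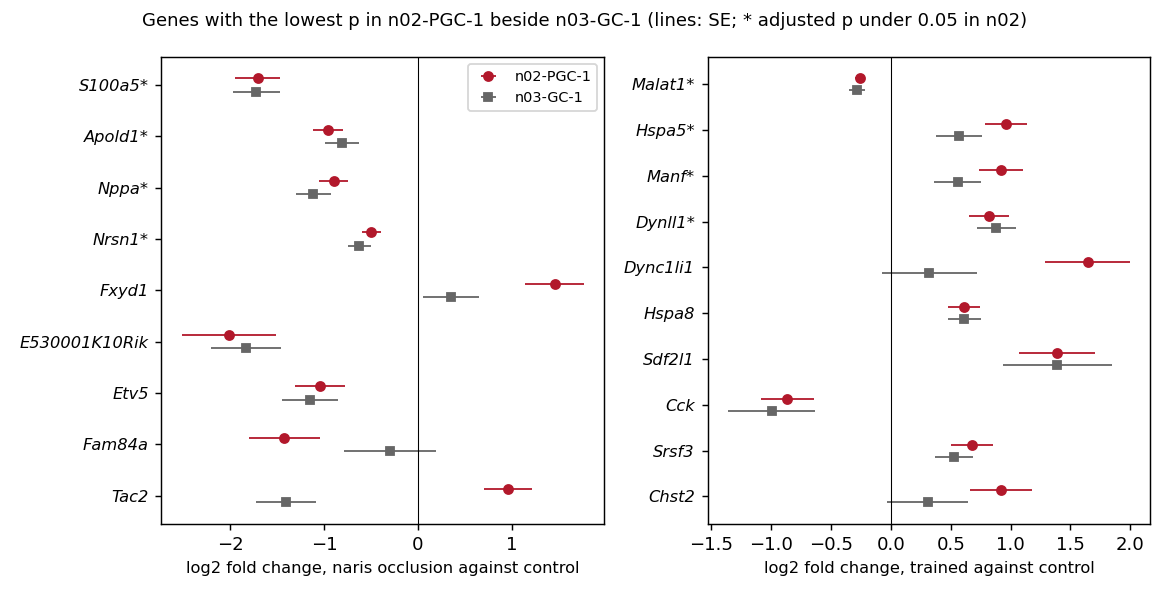
Log2 fold changes against control (horizontal axes, lines for the SE) in n02-PGC-1 (circles) and n03-GC-1 (squares), for genes with the lowest p in n02 under occlusion (left) and training (right), with asterisks for genes that passed in n02. Vip is left out on the left since it did not pass the filter in n03. On the left, Tac2 lies on opposite sides of 0, at 0.96 in n02 and −1.41 in n03, and Nppa, Apold1 and Nrsn1 lie below 0 in both types.

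Olfactory training was compared with the same control libraries. The test called 4 of 5829 genes (0.0686%), 3 higher (0.0515%) and 1 lower (0.0172%), with 284 at an unadjusted p under 0.05, while DESeq2 called 0 with 26. The 3 that rose include 2 genes of the endoplasmic reticulum. Hspa5, the chaperone BiP of that compartment, had 194 and 190 CPM in the controls, 125 and 151 with occlusion, and 411 and 344 with training (log2 fold change of training 0.96, SE 0.17, adjusted p = 0.010). Manf, a secreted protein of the endoplasmic reticulum stress response, had 163 and 148 CPM in the controls, 140 and 120 with occlusion, and 320 and 279 with training (0.92, SE 0.19, adjusted p = 0.034). Both were highest in the trained pair, with no overlap between trained and other libraries. Of all tested genes, 34.6% had trained and control libraries that did not overlap. The share with the trained pair apart from all other libraries was not counted. Dynll1, a light chain of dynein, had 334 and 408 CPM in the controls, 316 and 425 with occlusion, and 699 and 619 with training (0.82, SE 0.17, adjusted p = 0.034). The nuclear RNA Malat1 fell by 0.26 on the log2 scale (SE 0.05, adjusted p = 0.010), from 76260 and 85049 CPM in the controls to 70566 and 66654. Nppa, Apold1, Nrsn1, Calb2 and Vip did not pass, with log2 fold changes of −0.17, 0.07, 0.19, −0.14 and 0.12.

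These calls depended on single libraries. Hspa5 did not pass without control replicate 1 (adjusted p = 0.159), control replicate 2 (0.159) or trained replicate 1 (0.3496). Leaving out the same libraries in that order gave adjusted p = 0.274, 0.458 and 0.566 for Manf and 0.926, 0.0599 and 0.259 for Dynll1. Malat1 did not pass without control replicate 2 (0.669), and with the replicate block its adjusted p was 0.905. The 6 genes with the next lowest p did not pass: the dynein subunit Dync1li1 (log2 fold change 1.65, adjusted p = 0.062), the cytosolic chaperone Hspa8 (0.61, 0.082), Sdf2l1, a protein of the endoplasmic reticulum (1.38, 0.095), the peptide Cck (−0.86, 0.29), the splicing factor Srsf3 (0.68, 0.29) and the sulfotransferase Chst2 (0.92, 0.64).

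The trained libraries were also higher outside n02 in the 3 genes that rose. In nonneuronal cells, Hspa5 had 225 and 248 CPM in the controls and 365 and 293 with training, and Manf had 179 and 174 CPM and 263 and 221. Dynll1 had 476 and 525 CPM in nonneuronal control cells and 775 and 589 with training. None of the 3 passed in nonneuronal cells (adjusted p = 0.44, 0.35 and 0.57). Malat1, the gene that fell, had 57081 and 60452 CPM in nonneuronal control cells and 44710 and 48680 with training. Its means in n03 were 81618 CPM in the controls and 68507 with training. The difference of its training effects between n02 and n03 was 0.02 ± 0.09 (log2 scale, ± SE) and did not pass. In n03 Dynll1 passed narrowly (log2 fold change 0.88, adjusted p = 0.04995). The difference of the training effects between n02 and n03 did not pass for Hspa5 (0.41 ± 0.25, log2 scale, ± SE), Manf (0.37 ± 0.25) or Dynll1 (−0.06 ± 0.17), and 1 of 6527 genes passed this test (0.0153%). The share of n02 cells with an Hspa5 UMI was 30.1% and 33.1% in the controls, 22.1% and 19.1% with occlusion, and 46.3% and 49.2% with training, and thinned to 500 UMIs it was 10.5% and 13.3%, 9.20% and 8.09%, and 21.7% and 19.8%. In n11 cells Hspa5 was also detected, in 28.8% of cells and 6.77% after thinning. Thinned shares of other types lay on both sides of the 13.5% over all n02 cells, with 8.05% in n03 and 32.0% in n17-M/TC-3.

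The direct comparison of the manipulations, which uses neither control level, called 13 genes (0.223%), 9 higher (0.154%) and 4 lower (0.0686%) with training, with 381 at an unadjusted p under 0.05 (DESeq2 called 3). Hspa5 (log2 fold change 1.48, SE 0.20, adjusted p = 8.70e-05), Nrsn1 (0.69, SE 0.10, 0.00022) and Apold1 (1.03, SE 0.16, 0.00056) had the lowest p-values and passed without any single library. Also higher with training were E530001K10Rik (2.69), Pde10a, a phosphodiesterase of cAMP and cGMP (1.75), Manf (1.19), Dynll1 (0.85), Nppa (0.73) and Hspa8 (0.63). E530001K10Rik stood at 12.2 and 17.7 CPM with occlusion, 61.7 and 137 with training, and 63.2 and 53.1 in the controls, so that the occluded pair was the low one. Lower with training were Fxyd1 (−1.66), the hemoglobin gene Hbb-bs (−1.55), Vip (−1.04) and the fatty acid binding protein Fabp7 (−0.88). Hbb-bs, Fabp7 and Fxyd1 were far higher in other cells. Hbb-bs stood at 385895 CPM in red blood cells, Fabp7 at 15695 in the olfactory ensheathing cluster OEC1 against 355 ± 113 CPM in n02, and Fxyd1 at 3620 in OEC1 against 57.7 in n02. Their part in n02 was not tested. Each of these 10 genes failed without at least 1 library. Without naris-occluded replicate 1 the adjusted p was 0.073 for E530001K10Rik, 0.529 for Pde10a, 0.366 for Dynll1, 0.284 for Hspa8, 0.499 for Fxyd1, 0.497 for Hbb-bs and 0.280 for Fabp7. Without naris-occluded replicate 2 it was 0.303 for Nppa, 0.124 for Hspa8 and 0.0799 for Vip. Without trained replicate 1 it was 0.439 for Pde10a, 0.0929 for Manf, 0.115 for Dynll1, 0.438 for Hspa8 and Hbb-bs, and 0.194 for Fxyd1. Without trained replicate 2 it was 0.0582 for E530001K10Rik, 0.253 for Nppa, 0.333 for Vip and 0.0991 for Fabp7, and Hspa8 also failed without control replicate 1 (0.0547). The log2 fold change of Vip was −2.01 without trained replicate 1 and −0.53 without trained replicate 2, on either side of −1.04 with all libraries.

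Few genes were called in groups chosen by function. Of all tested genes, 0.0858% were called with occlusion and 0.0686% with training, and any list with a call lies above these shares. The lists were chosen with earlier results of these data known, and a gene can stand in several. A call within a list is therefore no independent evidence. Of the study's 30 genes of n02, which it chose on these samples so that their high level is not independent evidence, 21 were highest in n02, 2 fell with occlusion (Nppa and Apold1) and none with training, and the median log2 fold changes were −0.11 and −0.13 against 0.00 over all genes tested in both cases. Of 16 tested neuropeptides and granins, Vip rose and Nppa fell with occlusion (median −0.08) and none was called with training (median −0.18). Of 3 tested olfactory sensory neuron markers, S100a5 fell with occlusion and none was called with training. Of 15 genes of natriuretic peptides and cGMP in the table, 5 were tested and Nppa was the only one called. Immediate early genes, which neurons switch on with activity, had 13 tested members of 30, and Apold1, counted here, was the only one called. With occlusion 7 of the 13 had log2 fold changes above 0 (median 0.27, from −0.96 to 1.26), and with training 8 of 13 (median 0.14, from −0.80 to 1.29). Of the others, Jund had a log2 fold change with occlusion of 0.69, Ier5 0.80, Junb 0.75, Jun 1.26 and Fos −0.34, and with training Jun had 1.29 and Fos 0.94, none past the threshold. In BMP signaling, 0 of 11 tested genes were called, with a median of −0.35 for occlusion, and Grem1 had −0.40 (adjusted p = 0.84). Heat shock proteins and chaperones, with 12 tested of 17, had 1 call with training, Hspa5, and a median of 0.16, and 10 of the 12 values were above 0. No member was called with occlusion or training among the tested genes for GABA handling (9 genes, medians −0.06 and 0.09), ionotropic glutamate receptors (8, 0.02 and −0.19), potassium channels (11, −0.09 and 0.19), bulb interneuron transcription factors (21, 0.14 and −0.03), immature neurons (13, 0.13 and −0.11), synaptic vesicle release (22, −0.18 and 0.03), glycolysis (18, −0.04 and 0.00) or nuclear-encoded oxidative phosphorylation (43, −0.05 and 0.03).

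Female pools were compared with male pools over all 3 groups, and 11 genes passed (0.189%), 7 higher (0.12%) and 4 lower (0.0686%) in females (with 261 at an unadjusted p under 0.05). Xist and Tsix were higher in females, and Ddx3y and Eif2s3y were at 0 CPM in all 3 female libraries and at 73.3 to 100 and 40.7 to 63.8 CPM in males. Of the rest, S100a5 was lower in replicate 2 (log2 fold change −0.76, adjusted p = 0.00031). Sst, somatostatin, was higher, but 59 of its 60 UMIs in control replicate 2 came from 1 cell. The ribosomal pseudogenes Rps18-ps3, Rpl9-ps6, Rpl13-ps3 and Rpl27-ps3 were higher by 0.79 to 1.09, and since they share sequence with their parent genes, their counts are uncertain. All 4 were also higher in replicate 2 in the nonneuronal cells of each group. For Rps18-ps3 the nonneuronal values in replicates 1 and 2 were 68.1 and 121 CPM in the controls, 52.0 and 126 with occlusion, and 54.7 and 143 with training. S100a5 and these 4 pseudogenes each failed when either trained library was left out. The 2 refits are close to 1 check, since the library that stays has no partner in its group. S100a5 and Rps18-ps3 also failed without either control library, Rpl13-ps3 without control replicate 2, and the 4 pseudogenes without either naris-occluded library (adjusted p between 0.0521 and 0.344).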

How the data were processed

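Cells were captured in droplets (10x, 3′ UMI chemistry). The authors deposited raw UMI counts by gene and barcode, made with Cell Ranger 2.0.0, unnormalized in a single table; the submitters' processing notes name mm10 and Seurat 2.2.1. Each cell's library, its cluster and the fraction of mitochondrial UMIs are from annotations that the authors deposited, after removal of doublets per their methods. Here counts of n02 cells were summed per library, since cells are not replicates, and tested with edgeR 4.0.16 (R 4.3.3; TMM, filterByExpr, quasi-likelihood test on all 6 libraries without a block, Benjamini-Hochberg at 0.05). CPM are over all 18560 genes. Reads of a 3′ assay lie near transcript ends, so levels were compared within a gene only. The design allows no exact test below p = 0.333 for 2 against 2, so single values carry no such p.

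Tested on simulated data for occlusion in n02, the fit recovered 39.0% of 200 genes changed by 1 on the log2 scale. Of these 200, 186 passed the filter, among 5528 genes. It recovered 92.5% of 200 drawn from the 1000 most abundant. For the difference between n02 and n03 it recovered 25.5% of 200, of which 195 passed the filter. In this order, 6, 12 and 2 unchanged genes were called. The simulated counts had the same relative spread for every gene, around means pooled over the libraries. Genes whose UMIs lay in few cells, such as Vip, were not simulated as such, so these figures do not cover them. Named genes were the markers, the 20 genes with the largest ratio to the next type, members of 33 lists, and per comparison the called genes changed alike in both replicates or, with fewer than 10, the 10 lowest p. The members and lists were chosen with earlier results of these data known. Of the alternatives, 64 were planned and 8 were chosen after seeing the data (1 UMI per gene and cell, and omission of Vip-rich cells). The genes named from the lists beyond the 5 most abundant were chosen after their values were seen. Promoters were found for 7 of 8 genes looked up (not Manf). A gene called in the test of replicates and in a test between types is not reported here.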

Additional observations from a re-analysis of the deposited data

Results flagged for a closer look

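A difference between types in the response to a manipulation was found for the following genes. The occlusion effect on Tac2 differed between n02 and n03-GC-1 by 2.37 on the log2 scale. Within n02, 29 of the 65 cells with at least 3 Vip UMIs held a Tac2 UMI, and without those cells the occlusion effect on Tac2 in n02 was −0.06 in place of 0.96. The occlusion effect on Mt1 differed between n02 and n05-PGC-2 by 0.91, with control and occluded means of 704 and 918 CPM in n02 and of 4057 and 2777 CPM in n05, and neither type passed the test alone.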

How the results depend on the processing

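With 2 libraries per group, the counts of called genes moved with the fit, except that of 0 for the difference between n02 and n08, and the cause was not tested. For occlusion the count of 5 became 8 with the replicate block, 2 with DESeq2 (Apold1 and Nppa), 20 with n02 and n03 cells together, 1 with each gene counted at most once per cell (1 UMI per gene and cell), and 3 to 9 when 1 library was left out. For training the count of 4 became 7 with the block, 0 with DESeq2, 11 with no filter on low counts, 1 with the libraries of the 2 groups only, 1 with equal cell numbers (126 per library), 0 with 1 UMI per gene and cell, and 3 to 17 with a library left out (17 without trained replicate 2). For training against occlusion the count of 13 became 20, 3, 53 (n02 and n03), 8 (2 groups only) and 3 (1 UMI), and 10 to 28 with a library left out. Between replicates the count of 11 became 5 with 1 UMI and 5 to 10 with a library left out. For the differences between types, counts of 1 became 0 without the library term and with 1 UMI, 0 for n05 with no filter, and 3 for training in n02 and n03 in cells with at least 1000 UMIs; with a library left out they ran from 0 to 1 (n03), 0 to 4 (n05), 0 to 0 (n08) and 0 to 2 (training). The n02 share of 6.42% of the cells in the 12 types grouped as adult-born was 4.85% of all neurons and 9.83% among cells with at least 1000 UMIs. Values that changed sign were the occlusion effect on Tac2 (−0.0281 with n02 and n03 together, −0.0626 without Vip-rich cells) and the contrast of training and occlusion for Nrsn1 (−0.0254 with 1 UMI) and Vip (0.00654 without Vip-rich cells). Those cells were chosen by their Vip count, so the last value follows in part from the choice and is no test of Vip. With 1 UMI per gene and cell, the occlusion effects were −0.36 for Nppa (adjusted p = 0.92), −0.50 for Apold1 (0.60) and −0.03 for Nrsn1. Over all named genes, 550 alternative values stayed on their side of the threshold, 140 lost it, 43 gained it and 4 changed sign.

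Replicate numbers mark the sex of the pools. Over 5822 genes, with sex-linked genes left out, the deviations of same-numbered libraries from their group means correlated at 0.01, 0.03 and −0.01. Values this low over many genes cannot show that no gene shifts with the number. In the test between replicates 11 genes passed, sex-linked ones among them. With the replicate block all 5 genes called for occlusion and all 13 for training against occlusion were called again, and 3 of the 4 for training, all but Malat1.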

Other observations

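Cells with at least 3 Vip UMIs, a cut made after the values were seen, were 65 of the 1037 n02 cells (6.27%), and 17 had exactly 3 while 32 had 2. They held 87.1% of the Vip UMIs of n02. Compared with the other 972 cells they were deeper, with a median of 2666 against 1828 UMIs, which follows in part from a cut on raw UMIs. Among them, 8 lay outside the leading whole-bulb cluster, against 3 of the rest. Summed over cells, they had more Tac2 (1471 against 154 CPM), Gad2 (429 against 142) and the granin Scg2 (707 against 279). They also had more of the enkephalin precursor Penk (139 against 26.5, from 22 UMIs in these cells). Crh, the corticotropin-releasing hormone, was at 177 against 3.79, from 28 UMIs in the Vip-rich cells. The 65 cells had less Calb2 (4387 against 6626 CPM) and Nppa (448 against 974), and 54 of them held a Calb2 UMI. Tac2 was higher in them than in the other n02 cells in 6 of 6 libraries, from 438 against 69.8 CPM in trained replicate 2 to 2871 against 187 in naris-occluded replicate 1. These values describe a group chosen by Vip and carry no test.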
